A study of Mus musculus with 20 samples.

Results

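Nppa and 8 other genes that mark atrial cardiomyocytes were followed in left ventricular heart tissue of 20 mice on 4 diets. The 9 genes were Nppa, Sln, Myl7, Myl4, Bmp10, Mybphl, Stard10, Dkk3 and Kcnj3, and they were taken from the count table by the mouse symbol that belongs to each Ensembl identifier. All 9 were among the 15956 rows of the table, and all 9 passed the filter on low counts that left 13991 genes for testing. They are known atrial markers. The rule that picked them used no value of these mice, but they were chosen with earlier results of these data known.

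According to the methods the mice were male. By its label each was aged 18 months. The methods describe collection at a younger age. Casein was the protein source in all diets: the NP group received a normal-protein diet, the LP group a low-protein diet, the HF group a high-fat diet with the casein content of NP, and the HF + LP group a high-fat diet with the casein content of LP. Each group had 5 mice, each library came from 1 mouse, and no genetic change was named for any group. LP 5 is the only library whose label marks it as sample 2 of its mouse. The strain is not given in the sources used here.

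The atria and ventricles of the heart build their contractile apparatus from partly different genes. In the adult heart, atrial muscle cells store and secrete atrial natriuretic peptide, the hormone encoded by Nppa, which promotes sodium excretion and lowers blood pressure, and they use the atrial myosin light chains Myl7 and Myl4 where ventricular cells use Myl2 and Myl3. Ventricular muscle largely shuts Nppa off after birth but can express it again under load, so a level of Nppa in ventricular tissue can be read only beside the other atrial genes.

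The remaining genes have their own roles. Sln encodes sarcolipin, a small inhibitor of the sarcoplasmic calcium pump, and Mybphl encodes a myosin-binding protein of atrial sarcomeres. Bmp10 encodes a secreted ligand of the bone morphogenetic protein family that comes mainly from the right atrium in adults. Kcnj3 encodes a subunit of the potassium channel opened by acetylcholine in atrial cells, Stard10 a lipid transfer protein, and Dkk3 a secreted member of the dickkopf family.

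On GRCm38 with GENCODE M21, Nppa (ENSMUSG00000041616) lies at chr4:148000722-148002079 on the plus strand, Sln at chr9:53850164-53854560 (plus), Myl7 at chr11:5896637-5898782 (minus) and Myl4 at chr11:104550663-104595753 (plus). Bmp10 lies at chr6:87428994-87437677 (plus), Mybphl at chr3:108364911-108380057 (plus), Stard10 at chr7:101317086-101346626 (plus), Dkk3 at chr7:112116017-112159057 (minus) and Kcnj3 at chr2:55435970-55598145 (plus). All 9 are protein-coding genes. Nppa, Myl4, Mybphl, Stard10 and Kcnj3 overlap other annotated genes, of which all but a pseudogene inside Stard10 are on the opposite strand. Whether the counting used strand is not given in the sources used here, so reads from Nppa and from its antisense neighbour Gm13054, which has no row of its own, cannot be told apart.

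Because Nppa and most of the other genes rose and fell together over the mice, the bases just before their annotated starts are shown. RefSeq promoter windows on GRCm38.p6 were at hand for 7 of the 9 genes (Nppa, Myl7, Myl4, Bmp10, Mybphl, Stard10 and Kcnj3). In the 250 bases before the start, both strands were searched for TCACACC, bound by T-box factors, and for GATAA, bound by zinc-finger factors such as Gata4. Further searches were for TATAAA, the core promoter box, for CACGTG, the E box, and for the CArG box by its name. Capitals mark the matches on either strand. The 4 windows shown are Nppa (chr4:148000472-148000721, plus strand), Myl7 (chr11:5898783-5899032, minus strand), Mybphl (chr3:108364661-108364910, plus strand) and Bmp10 (chr6:87428744-87428993, plus strand), each written 5′ to 3′ toward its gene.
Nppa: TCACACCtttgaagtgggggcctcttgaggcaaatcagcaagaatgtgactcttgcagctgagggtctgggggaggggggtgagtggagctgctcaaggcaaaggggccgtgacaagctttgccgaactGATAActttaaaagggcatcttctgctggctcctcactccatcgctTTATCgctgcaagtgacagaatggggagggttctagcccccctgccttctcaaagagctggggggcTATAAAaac
Myl7: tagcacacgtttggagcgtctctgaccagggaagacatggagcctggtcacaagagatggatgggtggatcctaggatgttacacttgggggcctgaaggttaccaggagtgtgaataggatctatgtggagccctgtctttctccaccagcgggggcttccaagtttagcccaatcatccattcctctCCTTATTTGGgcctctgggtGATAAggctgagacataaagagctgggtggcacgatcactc
Mybphl: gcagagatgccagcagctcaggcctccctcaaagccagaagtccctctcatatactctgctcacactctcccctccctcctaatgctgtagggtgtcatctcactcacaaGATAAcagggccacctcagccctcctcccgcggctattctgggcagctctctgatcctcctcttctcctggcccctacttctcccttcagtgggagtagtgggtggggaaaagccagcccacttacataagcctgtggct
Bmp10: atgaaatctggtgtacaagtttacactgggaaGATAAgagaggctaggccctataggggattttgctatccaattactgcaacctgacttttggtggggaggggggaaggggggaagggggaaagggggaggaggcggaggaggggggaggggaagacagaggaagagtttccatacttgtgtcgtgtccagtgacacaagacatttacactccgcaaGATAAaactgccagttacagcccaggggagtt

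GATAA stood in 5 of the 7 windows (Nppa, Myl7, Bmp10, Mybphl and Stard10) and in 22.6% of all 32851 RefSeq windows of the same length. Nppa held 2 such matches, at 121 to 117 and 75 to 71 bases before the start, and Bmp10 also held 2. TCACACC stood in the Nppa window, at its far end, and in the Stard10 window, against 3.33% of all windows. The CArG box stood in the Myl7 window (1.47% of all windows) and TATAAA in the Nppa window (12.4%), whereas CACGTG stood in 0 of the 7 (6.02%). No 2 of these matches of different motifs overlapped. A match is a description of letters, not evidence of a bound site.

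Libraries were made by QuantSeq, which reads the 3′ end of each transcript, so levels of different genes can be compared without a correction for length. Totals lay between 12559607 and 23331907 counts per mouse. Levels are given as CPM, the share of a library's counts on a common scale after TMM scaling. Before any comparison, LP mouse 13 stood apart in log2 CPM of the 10159 genes with a mean normalized count over 50. Its median correlation with the other LP mice was 0.908, against 0.944 to 0.979 for the other 19 libraries, each within its own diet. In the same library Myl2, the ventricular regulatory light chain, was at 1797 CPM, while the other 19 libraries lay between 4720 and 8466 CPM. Whether the pieces labelled left ventricle held atrial tissue was not tested, and this bears on every level and diet difference given here.

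Nppa differed more between mice on the same diet than between diets, as most genes did. Differences between diets held 9.74% of its variance in log2 CPM, beside a median of 17.2% over all genes tested. In NP mice 3, 4, 5, 6 and 8 it was at 98.8, 789, 2359, 217 and 1007 CPM. In LP mice 2, 5, 13, 15 and 20 it was at 276, 126, 10624, 3831 and 1134 CPM. Both groups thus spread widely, and the lowest LP mouse stood below 4 of the 5 NP mice.

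In HF mice 1 to 5 Nppa was at 8258, 123, 2527, 173 and 104 CPM. In HF + LP mice 1 to 5 it was at 53.8, 138, 3387, 934 and 44.5 CPM. The 2 highest libraries, LP 13 and HF 1, came from different diets, and all 4 groups overlapped. From HF + LP mouse 5 to LP mouse 13 the level rose 239-fold. The within-diet SD of Nppa was 2.55 on the log2 CPM scale, the 13th largest of 13991 genes, whose median was 0.303.

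Myl7 and Myl4 followed the same mice. Myl7 was at 23.5, 217, 548, 55.9 and 227 CPM in NP mice 3, 4, 5, 6 and 8, and at 36.6, 1.21, 1984, 602 and 191 CPM in LP mice 2, 5, 13, 15 and 20. It was at 1798, 4.58, 814, 6.74 and 2.98 CPM in HF mice 1 to 5, and at 3.62, 3.53, 776, 112 and 6.32 CPM in HF + LP mice 1 to 5. Thus 7 libraries lay under 10 CPM, of which LP held 1, HF held 3, HF + LP held 3 and NP held 0, and the other 13 began at 23.5 CPM. This split was drawn after the values were seen and was not tested. Myl4 ran from 1.63 CPM in LP 5 to 1195 CPM in HF 1, a 732-fold range, and Myl7 covered a 1641-fold range. Both ranges start at LP 5, the library marked as sample 2, and the next lowest levels were 2.21 CPM for Myl4 (HF + LP 1) and 2.98 CPM for Myl7 (HF 5).

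Sln and Mybphl covered similar ranges. Sln ran from 0.302 CPM (5 counts) in LP 5 to 806 CPM in LP 13, where HF 1 followed at 800 CPM, and the next lowest level after LP 5 was 0.818 CPM in HF + LP 2. Its medians were 79.6 and 88.5 CPM in the NP and LP groups, and 3.53 and 1.64 CPM in the HF and HF + LP groups, all of which overlapped. Mybphl ran from 2 counts (0.121 CPM) in LP 5 to 5697 counts (211 CPM) in LP 13, with group medians of 19.1, 20.4, 0.415 and 0.365 CPM in NP, LP, HF and HF + LP. Sln, Myl7, Mybphl, Myl4 and Bmp10 had, in this order, the 5 largest within-diet SDs of all genes tested (3.93 for Sln, 3.2 for Bmp10).

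Bmp10 had a pattern of its own. In LP mice 2, 5, 13, 15 and 20 it was at 0, 0.0605, 807, 264 and 92.3 CPM, that is 0, 1, 21769, 3558 and 2182 counts. All 17 other libraries, LP 2 and LP 5 included, had at most 126 counts. Its highest levels outside LP were 6.48 CPM in HF 3, 3.87 in NP 8 and 2.62 in HF 1, while the 5 HF + LP mice lay between 0.182 and 0.982 CPM. In LP 2, where no read was counted, the allowed level is 3 counts, and against this floor LP 13 was at least 3431-fold higher. HF 1, HF 3 and HF + LP 3 had Myl7 at 776 CPM or more, above LP 15 and LP 20, without such Bmp10 levels.

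**Figure D1:**
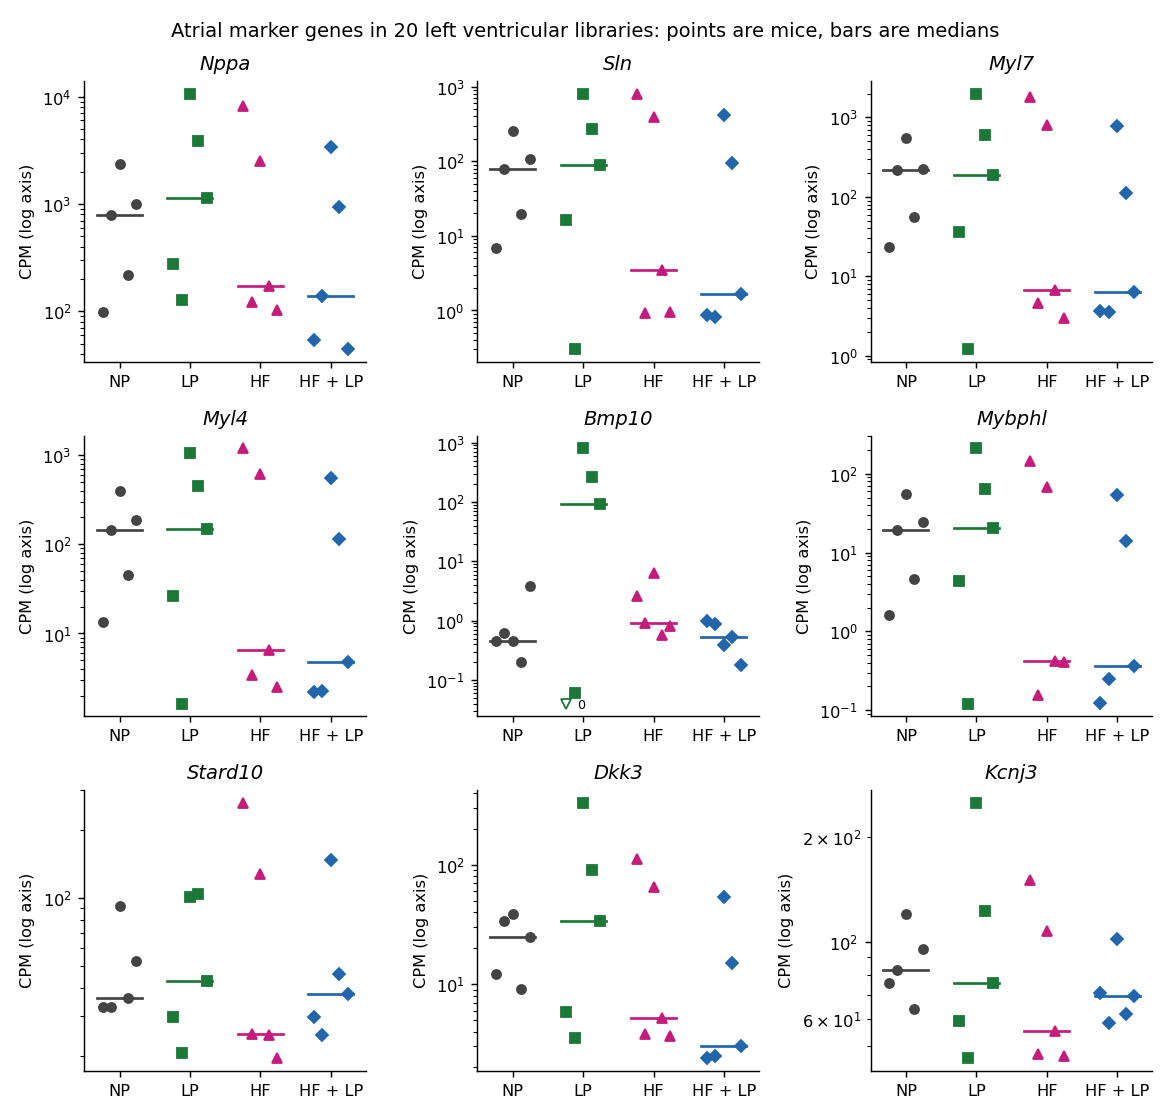
Level of each of the 9 genes in every mouse, in CPM on a log axis, by diet; points are mice and bars are group medians, and the open triangle marks the library with 0 Bmp10 counts. The diet groups overlap for every gene, Nppa runs from 44.5 to 10624 CPM, and Bmp10 exceeds 92 CPM in 3 LP mice while the other 17 mice stay at 6.48 CPM or less.

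Dkk3, Stard10 and Kcnj3 varied less. Dkk3 ran from 2.39 CPM in HF + LP 1 to 331 CPM in LP 13 (138-fold), where the next highest level was 112 CPM in HF 1, with group medians of 24.9, 33.7, 5.19 and 3.04 CPM in NP, LP, HF and HF + LP. Stard10 ran from 19.5 CPM in HF 5 to 263 CPM in HF 1 (13.5-fold), and the next highest level was 147 CPM in HF + LP 3. Kcnj3 ran from 46.2 CPM in LP 5 to 251 CPM in LP 13 (5.43-fold), ahead of 151 CPM in HF 1, and its within-diet SD of 0.659 ranked 1489th. Across the 9 genes, the highest library was LP 13 for 7 and HF 1 for 2, and these libraries were the 2 highest for 7 genes.

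The comparison of HF with NP asks what the high-fat diet does at normal protein content. None of the 9 genes was called at an adjusted p under 0.01 with a mean normalized count over 50 (edgeR quasi-likelihood test, Benjamini-Hochberg over all 13991 genes, of which 0.264% were called). At an unadjusted p under 0.05 the count was also 0, beside 1831 of all 13991 genes, and DESeq2 called 159 genes, of which 0 were among the 9. Nppa had a log2 fold change of 1.32 ± 1.36 (SE, n = 5 mice per diet, 95% interval −1.51 to 4.15, edgeR adjusted p = 0.770). The fitted log2 fold changes of 8 genes were positive, from 0.68 for Dkk3 to 1.35 for Sln, and Kcnj3 was at −0.10. Their median was 1.05, beside −0.00108 over all genes.

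These fitted values compare means of counts, which 1 mouse can carry. On the mean of log2 CPM, 6 of the 9 genes were lower in HF than in NP, with a difference of −1.59 for Myl7 and −1.58 for Sln, and Nppa differed by 0.040. The sign of the log mean was opposite to that of the fit for 5 genes (Sln, Myl7, Myl4, Mybphl and Dkk3). Without HF mouse 1 the fitted log2 fold change of Nppa was −0.29 instead of 1.32, and with the animal number as a block it was −2.29, with 7 of the 9 genes changing sign. The groups overlapped for all 9 genes, whereas 5.67% of all genes tested had HF and NP groups that did not overlap.

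LP was compared with NP for the effect of low protein at the lower fat content. No gene of the table was called in this comparison (0% of genes), while 1012 genes had an unadjusted p under 0.05 and DESeq2 called 4. Bmp10 had the smallest p of all genes, with a log2 fold change of 7.71 ± 1.55 (95% interval 4.48 to 10.9, edgeR adjusted p = 0.383), and was among the 4 called by DESeq2. The 5 LP values of Bmp10 included the 2 lowest of the series, and the groups overlapped. Nppa was at 1.84 ± 1.38 (adjusted p = 0.850), and at 0.55 without LP mouse 13. All 9 fitted values were positive (median 1.39, beside 0.023 over all genes), yet the mean of log2 CPM was lower in LP than in NP for Sln, Myl7 and Myl4, and the median difference of these means over the 9 genes was 0.098. With the animal number as a block all 9 values were negative (Nppa −2.05, Bmp10 −3.09, Myl7 −3.35). No gene of the 9 had groups that did not overlap, compared with 0.786% of all genes.

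HF + LP was compared with HF for the effect of low protein on the high-fat diet. No gene of the table was called (0%), 677 genes (0 of the 9) reached an unadjusted p under 0.05, and DESeq2 called 13 (0 of the 9). Nppa had a log2 fold change of −1.30 ± 1.36 (95% interval −4.12 to 1.53, edgeR adjusted p = 0.999), and this was 0.32 without HF mouse 1, −2.97 without HF + LP mouse 3 and 0.011 with the animal number as a block. All 9 fitted values were negative, from −0.17 for Kcnj3 to −1.95 for Bmp10, with a median of −1.30 beside 0.017 over all genes. By the mean of log2 CPM all 9 were also lower in HF + LP (median difference −0.90, beside 0.018 over all genes). The 9 genes share libraries, so their signs are not independent. The groups overlapped for all 9, and 1.18% of all genes did not overlap. This comparison shares the HF mice with the comparison of HF and NP, so opposite signs in both are not independent.

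In HF + LP compared to LP, 0 of the 9 genes were called against 0.1% of all genes, and 2 (Bmp10 and Dkk3) had an unadjusted p under 0.05, beside 2227 of all 13991 genes. Bmp10 was lower in HF + LP by a log2 fold change of −8.61 ± 1.64 (95% interval −12.03 to −5.19, edgeR adjusted p = 0.0224), which missed the threshold of 0.01 and passed it in DESeq2. The groups overlapped, since LP 2 and LP 5 stood below all 5 HF + LP mice. Dkk3 was at −2.59 ± 1.18 (edgeR adjusted p = 0.290) and Nppa at −1.81 ± 1.38 (adjusted p = 0.535). All 9 fitted values were negative, with a median of −1.64 beside −0.030 over all genes, and 1.87% of all genes had groups that did not overlap against 0 of the 9. By the mean of log2 CPM all 9 were also lower in HF + LP (median difference −2.12, beside −0.019 over all genes). Sln was at 0.13 without LP mouse 13 and Stard10 at 0.23 without LP mouse 15, and with the animal number as a block, which takes LP mice 13, 15 and 20 out of the contrast, Bmp10, Stard10 and Kcnj3 were positive (3.145, 0.36 and 0.18).

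The interaction asks whether the effect of low protein differed between the fat contents. No gene of the table was called (0%), while 1003 had an unadjusted p under 0.05. Nppa was at −3.13 ± 1.93 (95% interval −7.16 to 0.89, edgeR adjusted p = 0.776) and Bmp10 at −9.66 ± 2.14 (adjusted p = 0.614), the second smallest p of all genes. DESeq2 called 1 gene, which was Bmp10. With the animal number as a block all 9 interaction values were positive, with Nppa at 2.06 and Bmp10 at 1.36.

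In the test for any difference among the 4 diets, 1 of the 9 genes was called, Bmp10, against 0.479% of all genes (67 of 13991). Its edgeR adjusted p was 0.00133. Its mean normalized count was 1004, above the minimum of 50 for a call. Most of these counts came from LP mice 13, 15 and 20 (21769, 3558 and 2182 counts), and no other mouse had over 126. Without that minimum, Bmp10 was still called in edgeR, with the same adjusted p. The adjusted p of Bmp10 was 0.00557 without LP mouse 13 and HF mouse 1. It was 0.173 without LP mice 13, 15 and 20, the 3 mice whose Bmp10 was high. It was 0.228 with the animal number as a block, which takes these 3 mice out of every contrast. In both settings the loss of the call followed from removing the mice with high Bmp10, so it does not measure robustness. With Myl7, another of the 9 genes, as a covariate, the adjusted p was 0.0218 and the call was also lost. That setting was chosen after the data were seen. The count over all genes ran from 33 (without HF 4) to 101 (without LP 5) with single libraries left out. For the 8 other genes the adjusted p lay between 0.474 (Dkk3) and 0.927 (Sln).

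**Figure D2:**
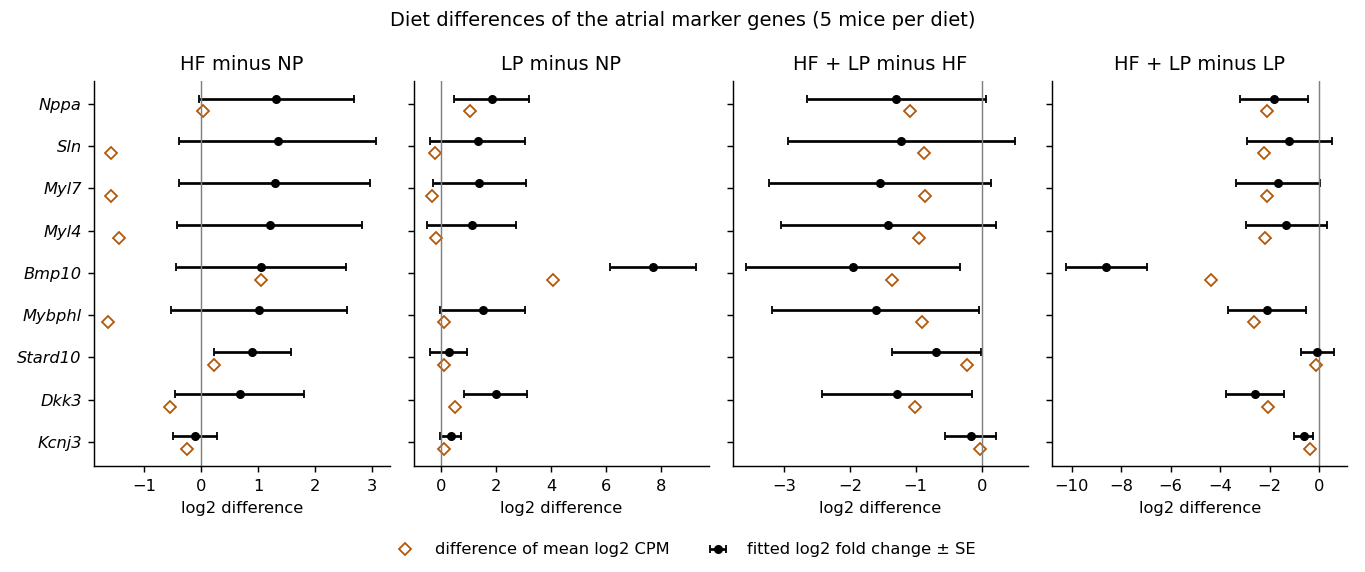
Difference between diets of the 9 genes in 4 comparisons, on a log2 scale, with filled points for the fitted log2 fold change ± SE and open diamonds for the difference of the group means of log2 CPM (5 mice per diet); the axis range differs between the panels. In HF minus NP the 2 measures lie on opposite sides of 0 for 5 genes, and Bmp10 has the largest fitted value in both comparisons with LP, 7.71 and −8.61.

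Nppa moved with the other atrial genes over the 20 mice. Pearson's r of log2 CPM between Nppa and each of 7 genes ran from 0.841 for Kcnj3 to 0.956 for Dkk3, with 0.943 for Myl7, 0.951 for Myl4, 0.945 for Sln, 0.956 for Mybphl and 0.874 for Stard10. The permutation p was 1e-05 for all 7, the smallest that 100000 resamples can give, and 0.00182 after Benjamini-Hochberg adjustment over the 13990 genes compared with Nppa. Genes outside the 9 reached this p as well. Ranked by r among all genes compared, Dkk3 stood 3rd, Stard10 48th and Kcnj3 61st, and the 4 others lay between 5th (Mybphl) and 13th (Myl7). Spearman's rho ran from 0.771 (Kcnj3, permutation p = 0.00011, adjusted p = 0.0181) to 0.925 (Mybphl, permutation p = 1e-05, adjusted p = 0.00333).

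The relations held within diets and without the extreme mice. After the diet means were removed, r ran from 0.845 (Kcnj3) to 0.971 (Mybphl). Without LP 13 and HF 1, the 2 libraries farthest from the Nppa median, it ran from 0.772 (Kcnj3) to 0.945 (Mybphl). Each library is also named with 1, 2 or 3, and no source used here says what this number marks. Within number 3, which holds 10 libraries of all 4 diets, r ran from 0.839 (Kcnj3) to 0.980 (Dkk3), and numbers 1 and 2 hold 5 libraries each, too few for a correlation. These genes are measured in the same libraries and the points share depth and dissection.

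Bmp10 fell into separate clusters, so no r is given over all mice. Over the 17 mice outside LP 13, 15 and 20, r between Bmp10 and Nppa was 0.447 and rho was 0.238. These 17 mice were set apart by their Bmp10 levels, and most of them had few Bmp10 counts, so the values are a description without a test. No test of whether Bmp10 moved with Nppa is given here. The 3 high-Bmp10 mice were also above the median Nppa level of the 20 mice, 533 CPM.

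**Figure D3:**
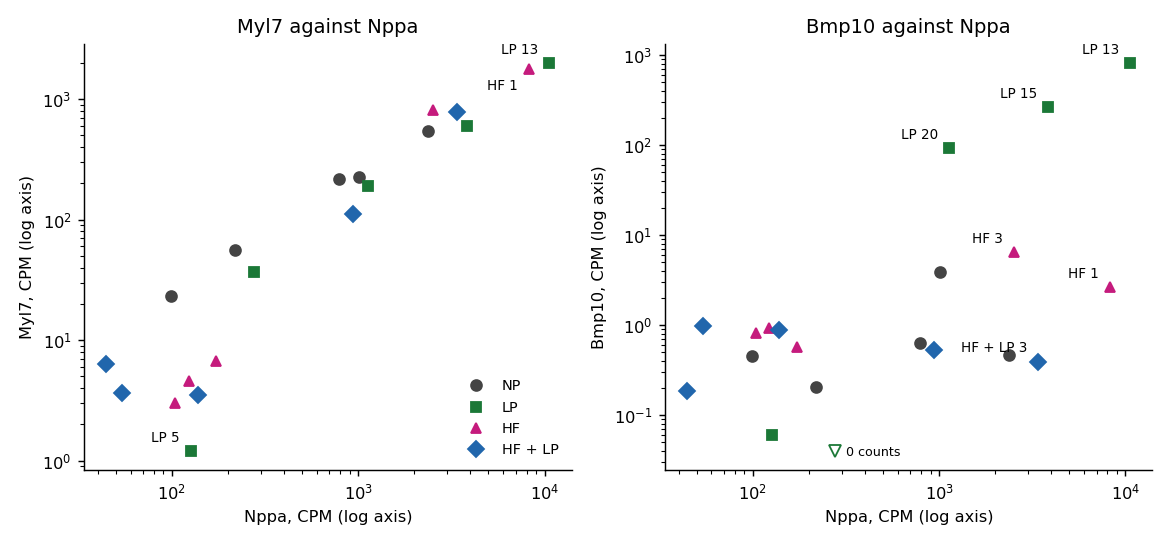
Myl7 (left) and Bmp10 (right) against Nppa in the 20 mice, all in CPM on log axes, coloured by diet. Myl7 rises with Nppa (r = 0.943), whereas Bmp10 is high in LP 13, 15 and 20 and at most 6.48 CPM elsewhere, also in HF 1, where Nppa is at 8258 CPM.

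In the 15 libraries with at least 100 Myl7 counts, Myl4 stood at 53.8 to 104 counts per 100 Myl7 counts, Mybphl at 5.77 to 12.7 and Sln at 26.0 to 84.6, while Myl7 itself ran from 6.32 to 1984 CPM. Nppa stood at 310 (HF 3) to 2572 (HF 4) per 100 Myl7 counts in these 15 libraries, with a median of 459. Dkk3 ranged from 6.23 to 76.9, Stard10 from 5.08 to 591 and Kcnj3 from 8.39 to 1100, each highest in HF 4 or HF + LP 5, where Myl7 was under 10 CPM. Bmp10 was at 40.7, 43.9 and 48.4 per 100 Myl7 counts in LP 13, 15 and 20, and between 0 and 8.46 in the 12 other libraries. The limit left out LP 5, HF 2, HF 5, HF + LP 1 and HF + LP 2, with 20 to 66 Myl7 counts. There Nppa stood higher, at 1486 (HF + LP 1) to 10455 (LP 5) per 100 Myl7 counts. Bmp10, with 1 to 18 counts, stood there at 5 (LP 5) to 27.3 (HF 5).

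**Figure D4:**
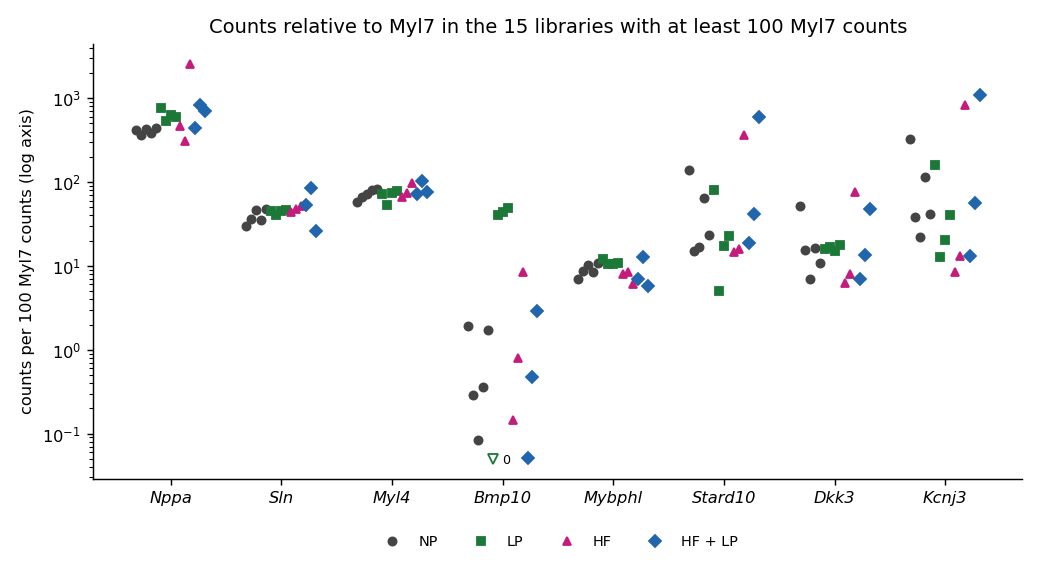
Counts of 8 genes per 100 Myl7 counts, on a log axis, in the 15 libraries with at least 100 Myl7 counts; each point is a mouse and the open triangle marks 0 Bmp10 counts. Myl4 (53.8 to 104), Sln and Mybphl form narrow bands, and Bmp10 splits into 3 LP mice above 40 and all others shown at 8.46 or less. Libraries under 100 Myl7 counts are not shown, and Bmp10 reaches 27.3 among them (HF 5).

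Other genes with the pattern of Nppa were sought among the 10150 genes outside the 9 with a mean normalized count over 50. The 10 with the highest r over the 20 mice were Fgf12, Mlana, Sbk3, Tmem163, Cilp2, Slc7a7, Lmntd1, Tbc1d1, Ppp1r1b and Smim1, with r from 0.9753 (Fgf12) to 0.910 (Smim1). Fgf12, an intracellular regulator of sodium channels, ran from 0 to 30.6 CPM, and Sbk3, a kinase gene, from 1.63 CPM in LP 5 to 363 CPM in LP 13. By likeness to the mean of the 8 other atrial genes, the 10 were Sbk3, Cilp2, Fgf12, Tmem163, Mlana, Sbk2, Lmntd1, Ppp1r1b, Zfp579 and Cacna1h (r from 0.983 to 0.929), and 7 genes stood in both sets. These genes were picked by r, so no test is given.

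Against the ventricular genes, the counts of atrial genes differed widely between libraries. Myl7 stood at 0.0156 counts per 100 Myl2 counts in LP 5, at a median of 1.17, at 36.4 in HF 1 and at 110 in LP 13, so that LP 13, labelled as left ventricle, held more counts of the atrial than of the ventricular regulatory light chain. Myl3, the ventricular essential light chain, was at 3801 CPM in LP 13 beside a median of 8839 CPM. The 9 genes together took from 0.0144% of all counts in HF + LP 1 to 1.87% in LP 13. In bulk tissue, fewer or more cells of a type and less or more RNA per cell cannot be told apart.

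Other atrial genes from a list of 12 were all tested, and 0 were called in any of the 6 tests. Cacna2d2, a calcium channel subunit, and Hamp, the iron hormone hepcidin, had the smallest p in the 4-diet test (edgeR adjusted p = 0.0328 and 0.0335). Both stood highest in the same 3 LP mice as Bmp10: Cacna2d2 was at 46.5, 18.6 and 7.86 CPM and Hamp at 59.2, 13.96 and 5.54 CPM in LP 13, 15 and 20. Elsewhere Cacna2d2 reached 7.12 CPM (HF 1) and Hamp 3.76 CPM (HF 3). Hamp has a near-identical copy in the mouse genome, so its counts are uncertain.

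Across the 12 genes of the list, the median log2 fold change was 0.20 in HF compared to NP, 0.45 in LP compared to NP, −0.48 in HF + LP compared to HF and −0.45 in HF + LP compared to LP.

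Of the natriuretic peptide pathway, 12 of 14 listed genes were tested and 0 were called in any of the 6 tests. Nppb, which encodes the other cardiac natriuretic peptide, did not share the range of Nppa: it ran from 3.63 CPM in NP 3 to 33.7 CPM in LP 5, the mouse with the least Myl7. In LP 13, where Nppa was at 10624 CPM, Nppb was at 19.3 CPM. Nppb had a log2 fold change of 0.92 ± 0.42 in HF compared to NP (edgeR adjusted p = 0.352). The peptide-degrading enzymes Ide and Mme, the phosphodiesterase Pde5a and the processing protease Furin had adjusted p-values of 0.272, 0.402, 0.305 and 0.571 in the 4-diet test. The median log2 fold change of the list was −0.18, 0.096, −0.050 and −0.38 in the 4 comparisons in the order used above.

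Of 9 ventricular genes and 10 cardiac transcription factors upstream of Nppa, all were tested and 0 were called in any test. Myl2 differed by −0.14 and Myl3 by −0.14 on the log2 scale in HF compared to NP (edgeR adjusted p = 0.894 and 0.855). The 10 factors, which include Gata4, Nkx2-5 and Tbx5, summed to between 597 and 876 CPM over the 20 libraries. Within them Tbx5, a T-box factor, ran from 24.3 CPM in NP 3 to 70.3 CPM in HF 1 and 102 CPM in LP 13, with r = 0.806 between its log2 CPM and that of Myl7 over the 20 libraries. For the 9 other factors r with Myl7 ran from −0.39 (Hand2) to 0.43 (Tbx20), and the median over the 10 was 0.087. These r are descriptions of libraries that share depth and dissection. Nkx2-5, a homeobox factor of the heart, had the smallest p of these in HF compared to NP, with a log2 fold change of −0.30 and an adjusted p of 0.299.

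Markers of other tissue parts differed between the same libraries. The 5 adipocyte markers, all tested, summed to 2.70 to 89.1 CPM in the NP group, 8.34 to 464 CPM in the LP group, 1.24 to 134 CPM in the HF group and 1.51 to 18.3 CPM in the HF + LP group. Their highest sums were 464 CPM in LP 13, 251 in LP 20 and 134 in HF 3, but HF 1, with the second highest Nppa, had 5.99 CPM. The 7 of 8 epicardial markers tested summed to 15.2 CPM in LP 5 and to 65.3 in LP 13, with 17.3 to 27.8 CPM over the NP mice, 17.1 to 34.8 CPM over the HF mice and at most 60.9 CPM over the HF + LP mice. The 4 smooth muscle markers ran from 51.1 CPM in HF 3 to 287 CPM in LP 13. Their part in the levels of the atrial genes was not tested.

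Markers of further cell types were summed in the same way. Skeletal muscle markers (3 of 8 tested, with Myh1, Myh2 and Myh4 among those not tested) summed to at most 4.84 CPM and lung markers (3 of 5) to at most 7.41 CPM. The sums were 7.49 to 32.4 CPM for valve and cartilage-like markers (4 of 7), 15.96 to 37.4 for neurons of cardiac ganglia (3 of 6), 183 to 309 for endocardium and endothelium (5 of 5), 1329 to 2103 for fibroblasts (4 of 4), 173 to 425 for macrophages (4 of 4) and 31612 to 50677 for ventricular cardiomyocytes (6 of 6). LP 13 held the highest neuron, endothelium and macrophage sums, and the next highest sums were 27.5, 266 and 409 CPM, all in LP 15. The lowest ventricular cardiomyocyte sum was also in LP 13, but LP 20 nearly equalled it at 31706 CPM, and HF + LP 3 followed at 33123 CPM. HF 1 held the highest fibroblast and valve sums. The part of these markers in the levels of the atrial genes was not tested. Mitochondrial genes took 35.4% to 47.2% of all counts, and 37.0% in LP 13.

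**Figure D5:**
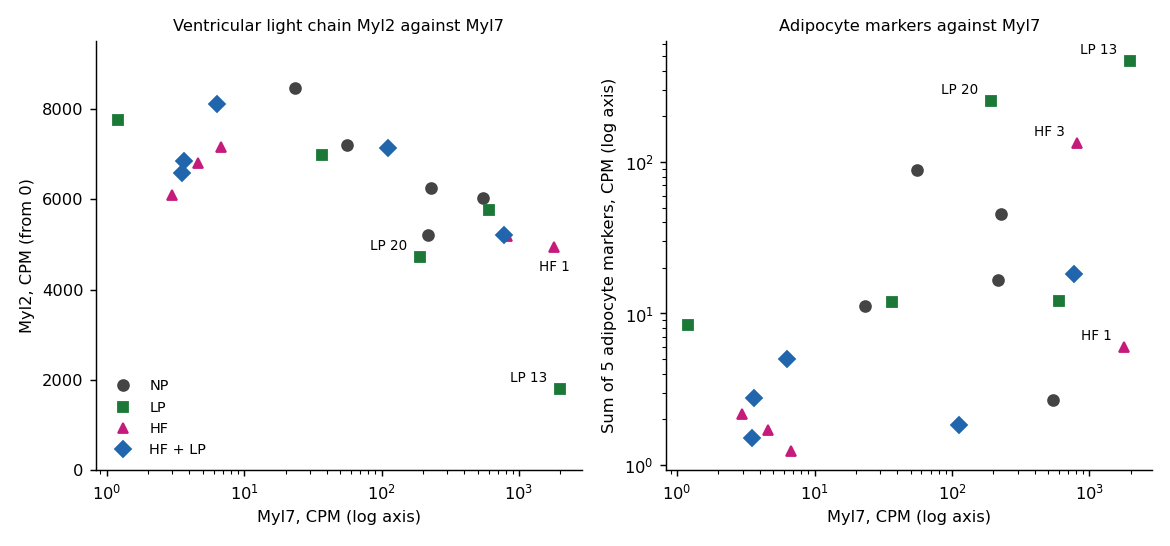
Myl2 on a linear axis from 0 (left) and the sum of 5 adipocyte markers on a log axis (right) against Myl7 on a log axis, in CPM, for the 20 mice coloured by diet. Myl2 is lowest, at 1797 CPM, in LP 13, where Myl7 is highest, and the adipocyte sum is 464 CPM in LP 13 and 5.99 CPM in HF 1.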

How the data were processed

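RNA of left ventricular heart tissue was made into QuantSeq 3′ libraries and sequenced on a NextSeq instrument. Reads were aligned on the BlueBee platform, and what the authors deposited are raw counts of reads, not normalized, with Ensembl identifiers and 1 column for each mouse. The submitters' processing notes name GRCm38 and DESeq2 1.22.2. The counting program and annotation are not given in the sources used here.

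Tests were run in edgeR 4.0.16 (R 4.3.3): filterByExpr by diet, TMM scaling, 1 quasi-likelihood model over all 20 libraries, and Benjamini-Hochberg adjustment over all genes tested. Calls needed a mean normalized count over 50 as well as an adjusted p under 0.01, the study's criteria. Standard errors come from the F statistic. Correlations use log2 CPM (prior count 2). The test was checked on simulated data. The animal numbers in the labels name different mice.

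The named genes are the 9 atrial genes, the 10 genes most like Nppa and the 10 most like the mean of the other 8, and at most 5 genes of each of 17 lists by the smallest p of the 4-diet test, with Myl2 and Myl3. Lists and genes were chosen with earlier results of these data known. Sets of genes were described by counts and medians, without a set test. Alternatives were RLE size factors, DESeq2 1.42.0, 2 other filters on low counts, other thresholds, the library number, the animal number, only the groups compared, and each mouse left out. Totals per mouse were 12559607 to 23331907 counts. The labels mark separate animals, so the error is the spread between mice. Intervals and floors cover the model or counting error only.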

Additional observations from a re-analysis of the deposited data

Results flagged for a closer look

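In 9 of the 36 groups of 5 mice examined (9 genes in 4 diets), 1 mouse lay far from the 4 others by Dixon's criterion on CPM. Chance meets it in about 1 of 20 groups where values are normally distributed, which these skewed CPM values are not, and on log2 CPM 0 of the 36 groups met it. The genes share libraries, so the 9 cases are not independent. In 7 of them the mouse was HF + LP 3, with Nppa at 3387 CPM (next highest 934), Sln at 416, Myl7 at 776, Myl4 at 555, Mybphl at 54.5, Stard10 at 147 and Dkk3 at 54.1 CPM. The remaining 2 were Dkk3 in LP 13 at 331 CPM (next highest 90.5) and Bmp10 in NP 8 at 3.87 CPM (next highest 0.633). Bmp10 in LP, Nppa in LP and Nppa in HF did not meet the criterion.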

How the results depend on the processing

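With 5 mice per diet and within-diet SDs of up to 3.93 on the log2 scale, the 95% intervals of most fold changes span several log2 units. Of the 9 atrial genes, 0 were called for HF against NP and 0 for HF + LP against HF under every alternative run. With DESeq2, 1 of the 9 (Bmp10) was called in LP compared to NP, in HF + LP compared to LP and in the interaction. Bmp10 was also the 1 of the 9 called in HF + LP compared to LP at an adjusted p under 0.05, and over the libraries left out in turn the count there ran from 0 to 1 (1 without LP 2 and without LP 5). In the 4-diet test the count of 1 fell to 0 with at least 10 counts in every library (which removes Bmp10), with the animal number as a block, and, in 2 settings chosen after seeing the data, without LP 13, 15 and 20 and with Myl7 as a covariate, where Bmp10 had an adjusted p of 0.0218. Over the single libraries left out, the adjusted p of Bmp10 in that test ran from 0.000166 to 0.00379, and over all settings it reached 0.228. All 7 correlations of Nppa held in every setting run.

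Same-numbered mice are different animals, and their deviations had mean correlations of −0.236 (HF with NP, 3 shared numbers) to 0.208 (LP with NP, 1 shared number), so the numbers do not pair the mice. With the animal number as a replicate block, 0 of the 9 genes were called in every test, and 7 correlations of Nppa held. The numbers 13, 15 and 20 occur in LP alone and 6 and 8 in NP alone, so the block leaves those mice out of every contrast. Under it the uncalled log2 fold changes changed sign as follows. In HF compared to NP they were −2.29 (Nppa), −4.77 (Sln), −4.63 (Myl7), −4.28 (Myl4), −3.35 (Mybphl), −0.19 (Stard10) and −1.41 (Dkk3). In LP compared to NP they were −2.05 (Nppa), −3.02 (Sln), −3.35 (Myl7), −3.02 (Myl4), −3.09 (Bmp10), −2.66 (Mybphl), −0.67 (Stard10), −1.72 (Dkk3) and −0.66 (Kcnj3). In HF + LP compared to HF they were 0.011 (Nppa), 0.47 (Sln), 0.29 (Myl7) and 0.21 (Myl4), and in HF + LP compared to LP 3.145 (Bmp10), 0.36 (Stard10) and 0.18 (Kcnj3). The interactions were 2.06 (Nppa), 3.49 (Sln), 3.64 (Myl7), 3.24 (Myl4), 1.36 (Bmp10), 2.57 (Mybphl), 0.55 (Stard10), 1.06 (Dkk3) and 0.62 (Kcnj3). With the library number as covariate, Dkk3 was at −0.048 in HF compared to NP. The causes were not tested.

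Leaving out single libraries changed the sign of further uncalled values. In HF compared to NP the ranges were −0.29 to 2.08 (Nppa), −0.048 to 2.00 (Myl7), −0.018 to 1.90 (Myl4), −0.26 to 1.78 (Mybphl), −0.29 to 0.97 (Dkk3) and −0.45 to 0.044 (Kcnj3), the lowest without HF 1 in each. In LP compared to NP they were −0.025 to 2.14 (Sln), −0.083 to 2.10 (Myl7), −0.040 to 1.80 (Myl4), −0.020 to 0.63 (Stard10) and −0.22 to 0.54 (Kcnj3), the lowest without LP 13 in each. In HF + LP compared to HF they were −2.97 to 0.32 (Nppa), −3.34 to 0.045 (Sln), −1.44 to 0.21 (Stard10) and −0.35 to 0.18 (Kcnj3), the highest without HF 1. In HF + LP compared to LP they were −3.29 to 0.13 (Sln) and −0.78 to 0.23 (Stard10), and the interaction of Kcnj3 was −0.71 to 0.042. Over all genes, the count called in HF compared to NP was 37, against 159 with DESeq2, 157 at an adjusted p under 0.05, 61 with only the groups compared and 2 with the block. In HF + LP compared to LP it was 14, against 84 with DESeq2, 45 at an adjusted p under 0.05, 5 with the library number, 0 with the block and 0 with only the groups compared. In the 4-diet test it was 67, against 327 with DESeq2, 252 at an adjusted p under 0.05, 38 with the library number and 2 with the block. With single libraries left out, these counts ran from 20 (without HF 4 or NP 6) to 69 (without LP 13) in HF compared to NP, where leaving out NP 5, NP 8 or HF 5 also moved the count by over 1.5 times. They ran from 1 (without HF + LP 2 or HF + LP 4) to 16 in HF + LP compared to LP, where 15 of the 20 libraries moved it that far (all but NP 4, LP 5, HF 2, HF + LP 3 and HF + LP 5). In the 4-diet test they ran from 33 (without HF 4) to 101 (without LP 5), and HF 2 and HF 5 also moved it that far.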

Other observations

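Of 6 load and hypertrophy genes, all tested, 0 were called in any of the 6 tests. Ankrd1, a stretch-responsive gene of muscle, ran from 1953 to 5284 CPM, with a log2 fold change of 0.076 in HF compared to NP and of −0.52 in HF + LP compared to HF (edgeR adjusted p = 0.927 and 0.684). Myh7, the slow myosin heavy chain, was at −1.08 in HF + LP compared to HF (adjusted p = 0.779).

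Of 9 conduction system genes, 7 were tested (not Hcn4 and Isl1) and 0 were called. Cacna1g, a T-type calcium channel, had a log2 fold change of −1.01 in HF compared to NP with an edgeR adjusted p of 0.0284, and ran from 1.94 CPM in HF 2 to 8.02 CPM in LP 15. Myh11, the smooth muscle myosin heavy chain, was called in the 4-diet test (adjusted p = 0.00410) and ran from 12.02 to 29.1 CPM over the NP mice, 13.0 to 58.1 CPM over the LP mice (58.1 in LP 13 and at most 22.1 in the other 4), 6.74 to 9.32 CPM over the HF mice and 6.36 to 10.2 CPM over the HF + LP mice. It was the 1 gene of 4 smooth muscle markers called in that test, where Cnn1, Tagln and Acta2 had edgeR adjusted p-values of 0.0705, 0.148 and 0.273. Acta2, smooth muscle actin, was at 39.8 to 48.6 CPM over the HF mice and 50.03 to 140 CPM over the HF + LP mice, with a log2 fold change of 0.96 against 0.11 for Myh11, and neither was called in HF + LP compared to HF.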
